A study of Mus musculus with 6 samples.

Results

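Transcripts of 58 genes that act in the G2 phase and in mitosis were examined in sorted LT-HSCs, the long-term stem cells of the blood system, which are rare in bone marrow and can renew all blood lineages for life. The genes were matched by symbol to the rows of the deposited expression table, and all 58 were found among its 23235 genes. The study compared cells from mice labelled wild type (WT) with cells from mice labelled Hmces knockout (KO), with 3 libraries in each group by the labels, although the series' design text speaks of duplicates. All 6 libraries were used. All 6 samples are labelled C57BL/6, bone marrow and 2 months of age, and each library started from RNA of 1500 sorted cells amplified by Smart-seq2, a full-length cDNA method for low input. A tag, 13bp, stands in the titles of all 6 samples, and its meaning is not given. The sources used here do not state the knockout allele, the staining panel or whether each library came from its own animal. The spread that the p-values rest on may therefore be technical. The HMCES protein shields abasic sites in DNA by forming a crosslink with them.

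The values are FPKM, fragments scaled to transcript length and to the mapped fragments of the library, so levels can be compared between genes. Depth was estimated at 9300000 to 14200000 fragments per library. Hmces itself, listed as 8430410A17Rik, had 39.5, 45.4 and 41.0 FPKM in the WT libraries and 8.95, 0.222 and 6.95 FPKM in the KO libraries, in the direction of the labels. All 12 LT-HSC markers on the list used here were above 0 in every library. Their levels ran from Ly6a (217 to 353 FPKM) and Meis1 (122 to 160 FPKM) down to Fgd5 (0.414 to 1.23 FPKM) and Hoxb5 (0.0618 to 0.912 FPKM), 2 genes often used to define the most primitive cells. Granulocyte and monocyte markers were abundant too. Their sum over 12 genes was 8377 ± 1880 FPKM in WT and 21206 ± 3389 FPKM in KO libraries (SD, n = 3 each).

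Cells enter mitosis when cyclin-dependent kinase 1 binds B-type cyclins and is switched on by CDC25 phosphatases. Polo and Aurora kinases then help to build the spindle, condensin compacts the chromosomes, and the spindle checkpoint holds anaphase back until kinetochores are attached. The anaphase-promoting complex ends mitosis by marking securin and cyclin B for destruction. Most of these transcripts are made in G2 and M phase and kept low in resting cells, largely through repressor and activator complexes built on the MuvB core, which bind a promoter element called the cell cycle genes homology region (CHR). Adult LT-HSCs are known to be mostly quiescent, and the transcripts of this programme are widely used as a readout of dividing cells.

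The promoters of these genes shared short sequence words that the choice of genes had not used. RefSeq promoters (assembly GRCm38.p6, 250 bases before to 50 bases after the transcription start) were found for 50 of the 58 genes. None was matched for Cdc25c, Foxm1, Aurkb, Incenp, Spc24, Tpx2, Kif20a and Smc4. The CHR word TTTGAA, searched on both strands, was present for 35 of 50 genes (70.0%), against 5466 of 27025 genes with a promoter (20.2%). The word CCAAT, the binding sequence of the factor NF-Y, was present on either strand for 37 genes (74.0%, against 41.1% of all). Both words stood in the same promoter for 30 genes (60%, against 7.97% of all). The 2 words can overlap only by an end letter. The CHR word also lay close to the start: it was found within 50 bases of it for 31 of 50 genes (62.0%), against 5.72% of all genes. These are descriptions of letters in a window, not of binding. The CHR word was not particular to the 58 genes: other G2/M genes, a list described below, carried it in 28 of 52 cases (53.8%). DNA replication and G1/S genes carried the CHR word in 6 of 44 cases (13.6%), and subunits of the anaphase-promoting complex in 1 of 12.

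The 120 bases before the start are shown for 8 genes, chosen to show both words together, CCAAT alone and neither, with every CHR and CCAAT match on either strand in capitals.
Cdk1, chr10:69352913-69353032, minus strand: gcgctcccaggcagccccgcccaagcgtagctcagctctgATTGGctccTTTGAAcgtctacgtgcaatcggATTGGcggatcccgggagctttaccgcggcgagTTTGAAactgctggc
Cdc20, chr4:118437344-118437463, minus strand: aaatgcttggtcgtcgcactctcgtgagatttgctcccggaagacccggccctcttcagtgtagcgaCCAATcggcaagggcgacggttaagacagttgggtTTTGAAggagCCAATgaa
Ube2c, chr2:164769809-164769928, plus strand: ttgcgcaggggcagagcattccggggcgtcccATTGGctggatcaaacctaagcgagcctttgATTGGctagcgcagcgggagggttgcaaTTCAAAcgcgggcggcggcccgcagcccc
Top2a, chr11:99024190-99024309, minus strand: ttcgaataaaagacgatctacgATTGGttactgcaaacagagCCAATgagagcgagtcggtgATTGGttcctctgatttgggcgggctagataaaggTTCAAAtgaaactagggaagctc
Kif11, chr19:37376262-37376381, plus strand: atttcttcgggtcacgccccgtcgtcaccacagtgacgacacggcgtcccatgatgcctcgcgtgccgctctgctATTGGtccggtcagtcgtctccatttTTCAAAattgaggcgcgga
Ccnb1, chr13:100786487-100786606, minus strand: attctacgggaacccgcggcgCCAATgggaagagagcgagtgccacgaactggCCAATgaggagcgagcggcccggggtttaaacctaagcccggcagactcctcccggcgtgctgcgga
Cks2, chr13:51645112-51645231, plus strand: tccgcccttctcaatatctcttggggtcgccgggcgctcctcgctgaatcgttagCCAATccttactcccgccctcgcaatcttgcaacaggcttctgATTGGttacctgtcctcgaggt
Ncaph, chr2:127133955-127134074, minus strand: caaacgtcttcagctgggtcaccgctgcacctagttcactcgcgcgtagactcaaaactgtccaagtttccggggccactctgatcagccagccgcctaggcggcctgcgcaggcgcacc
The first 5 carried both words within this stretch. Ccnb1 and Cks2, which reach the highest levels of their role together with Ccnb2, carried CCAAT and no CHR word in the whole 300-base window, and Ncaph carried neither. The 35 genes with the CHR word had a median level of 33.4 FPKM and a median log2 fold change (KO minus WT) of 0.01, and the 15 without it 34.8 FPKM and -0.10.

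**Figure D1:**
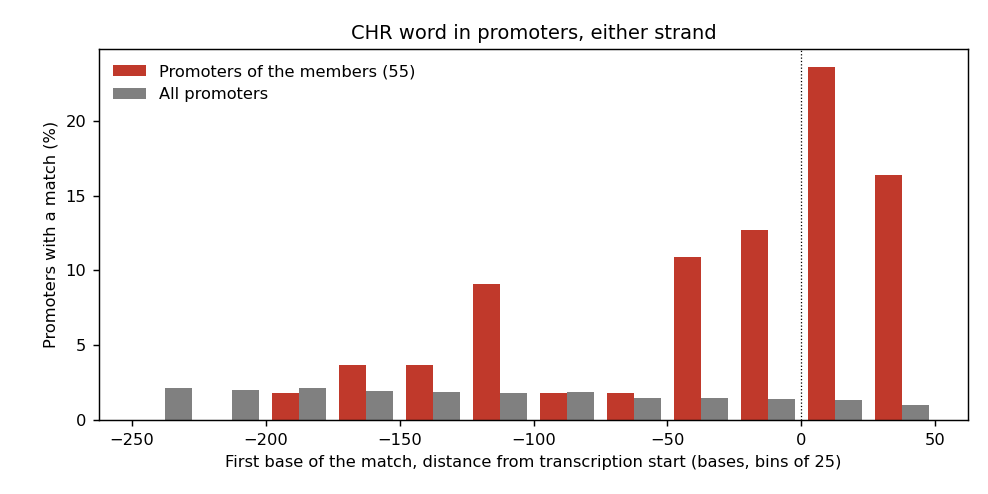
Share of promoters (vertical axis, percent) with the CHR word on either strand in each 25-base step along the promoter (horizontal axis, bases from the transcription start), for the 55 promoters of the 50 matched genes (red) and all promoters in the RefSeq table (grey). The member promoters reach 23.6% just after the start, where all promoters stand at 1.31%, and lie at 0 in the 2 most distant steps.

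Mitotic transcripts were readily detected in every library of both genotypes. All 58 genes stood at or above 1 FPKM in each of the 6 libraries, between 46 and 51 of them reached 10 FPKM, and 15 to 19 reached 50 FPKM. The median over the 58 genes was 33.9, 29.5 and 32.2 FPKM in WT replicates 1 to 3 and 27.7, 32.9 and 30.2 FPKM in KO replicates 1 to 3, against medians of 12.9 to 13.7 FPKM over the 11532 genes tested. Ranked by mean level among those genes, 45 of the 58 lay above the median, and the median member stood at percentile 70.4. The highest value was that of Cks2 in KO replicate 1, 684 FPKM, and the lowest that of Espl1 in KO replicate 2, 2.15 FPKM. These are levels in bulk RNA from sorted cells, in which fewer dividing cells and less RNA per dividing cell cannot be told apart, and a share of dividing cells cannot be read from them.

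The summed level of the programme was nearly the same in both genotypes. It was 3004, 2823 and 2942 FPKM in WT replicates 1 to 3 and 3091, 2770 and 2889 FPKM in KO replicates 1 to 3. The 2 ranges overlapped, and the lowest and the highest sum were both in KO libraries. The means were 2923 ± 92.0 FPKM in WT and 2917 ± 162 FPKM in KO (SD, n = 3 each), a ratio of 0.998. Cks2, which encodes a small subunit of cyclin-dependent kinases, made up 17.5% of the WT sum. Without it the ratio was 0.972. As a share of all FPKM, the 58 genes took 0.388%, 0.352% and 0.406% in WT and 0.398%, 0.390% and 0.380% in KO libraries. The libraries were not alike for single genes. WT replicates 1 and 3 were the highest library for 15 genes each (25.9%, against 11.2% and 18.6% of all genes). KO replicates 1 and 2 were the highest for 10 and 11 genes (17.2% and 19.0%, against 16.7% and 23.4% of all genes). KO replicate 3 was the highest for 4 (6.90%, against 15.8% of all genes) and WT replicate 2 for 3 (5.17%, against 14.2% of all genes). WT replicate 2 was the lowest for 13 genes (22.4%, against 11.3% of all genes). Its median deviation from the middle of the 6 libraries was -0.08 on the log2(FPKM + 1) scale, with the other libraries between -0.02 and 0.05. Single genes varied little: the ratio of highest to lowest library was below 2 for 50 of 58 genes, with a median of 1.56. The smallest ratio was 1.07 and the largest 3.12. The median spread within a genotype was 0.21 on the log2 scale for the 58 genes and 0.31 for all genes tested, without matching for level.

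**Figure D2:**
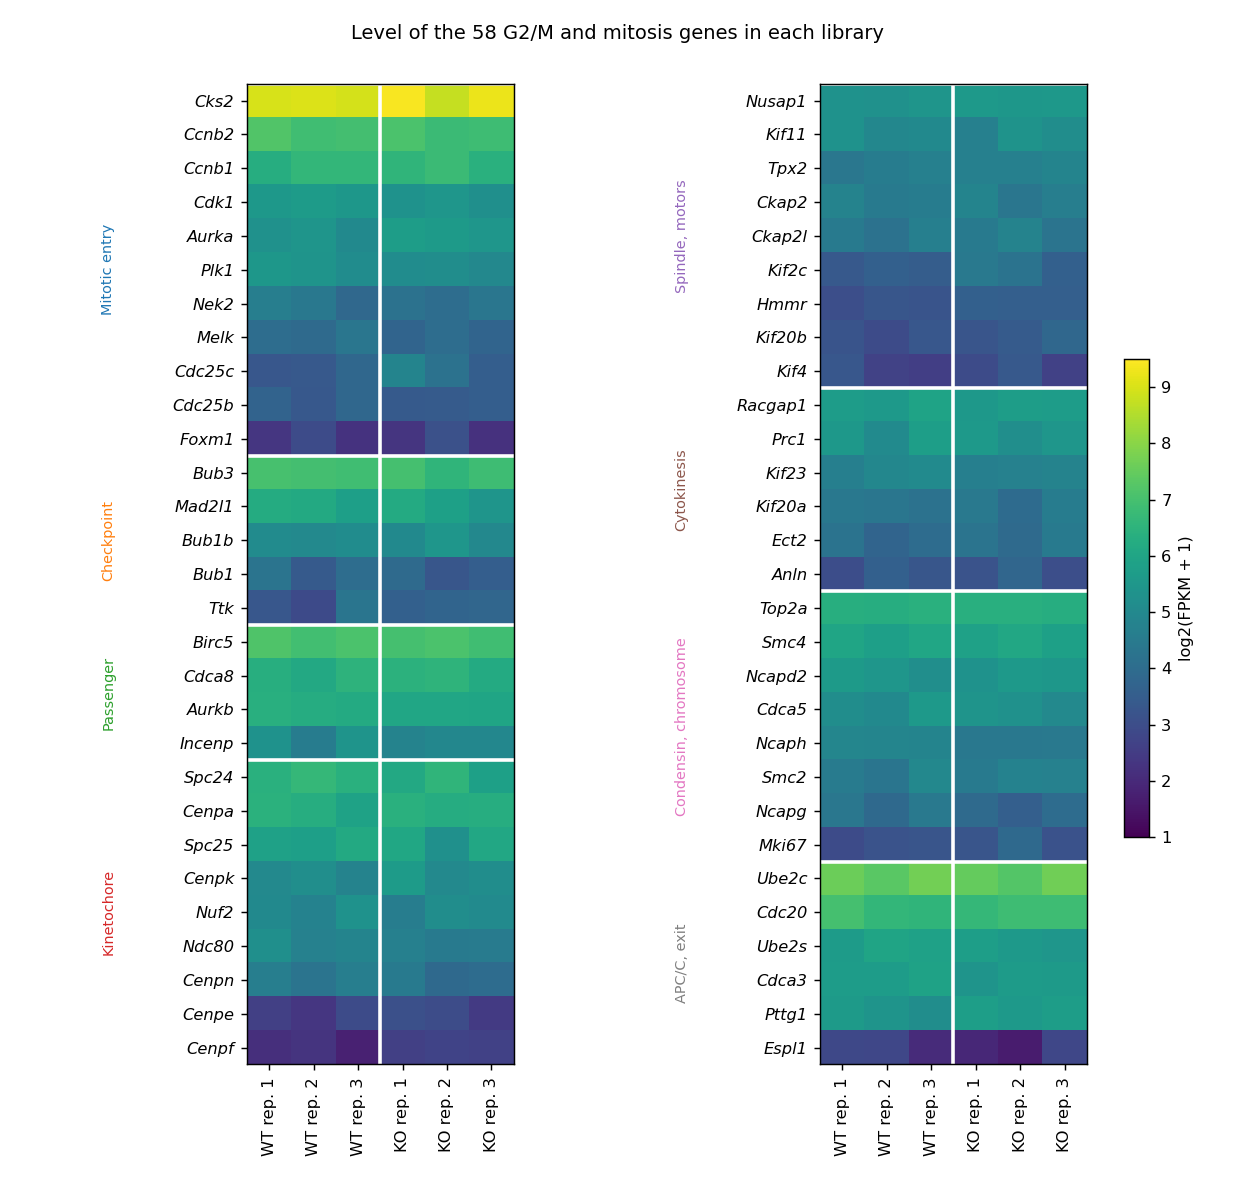
Level of each of the 58 genes as log2(FPKM + 1) (colour) in the 3 WT and 3 KO libraries (columns), with rows grouped by role and ordered by mean level within each role. Rows differ far more than columns: Cks2 is the brightest row in all 6 libraries, and no column is brighter or darker throughout.

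No member of the programme was called different between the genotypes. Levels were compared on the log2(FPKM + 1) scale with limma, a linear model with moderated variances, over all 11532 genes with a mean of at least 1 FPKM, with Benjamini-Hochberg adjustment across that whole set. At an adjusted p under 0.05, 0 of 58 members were called, against 13 of all genes (0.113%; 0.104% higher and 0.00867% lower in KO). The smallest adjusted p of a member was 0.482. Hmces itself, with a log2 fold change of -3.23 (SE 0.71), was not called either (limma adjusted p = 0.289). The absence of calls among the members therefore does not show that their levels were equal. One member, Ncaph, had an unadjusted p under 0.05 and was lower in KO (1.72% of the members, against 9.16% of all genes, 4.32% higher and 4.84% lower). WT and KO values did not overlap for 9 of 58 members (15.5%, against 15.8% of all genes), 4 of them higher and 5 lower in KO (7.47% and 8.34% of all genes). The share without overlap was near that of the whole table. The log2 fold changes ran from -0.46 to 0.70 with a median of -0.01, the same median as that of all genes, and 28 were positive and 30 negative. A log2 fold change beyond 0.5 in size was seen for 3 members (5.17%), against 18.5% of all genes. These shares were not matched for level, and the median SE was 0.2 for the members and 0.27 for all genes. The 95% interval of the log2 fold change lay within 1 in both directions for 53 members, and the 5 others, Cdc25c, Ttk, Cenpf, Kif2c and Espl1, had a bound between 1.04 and 1.5 in size.

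**Figure D3:**
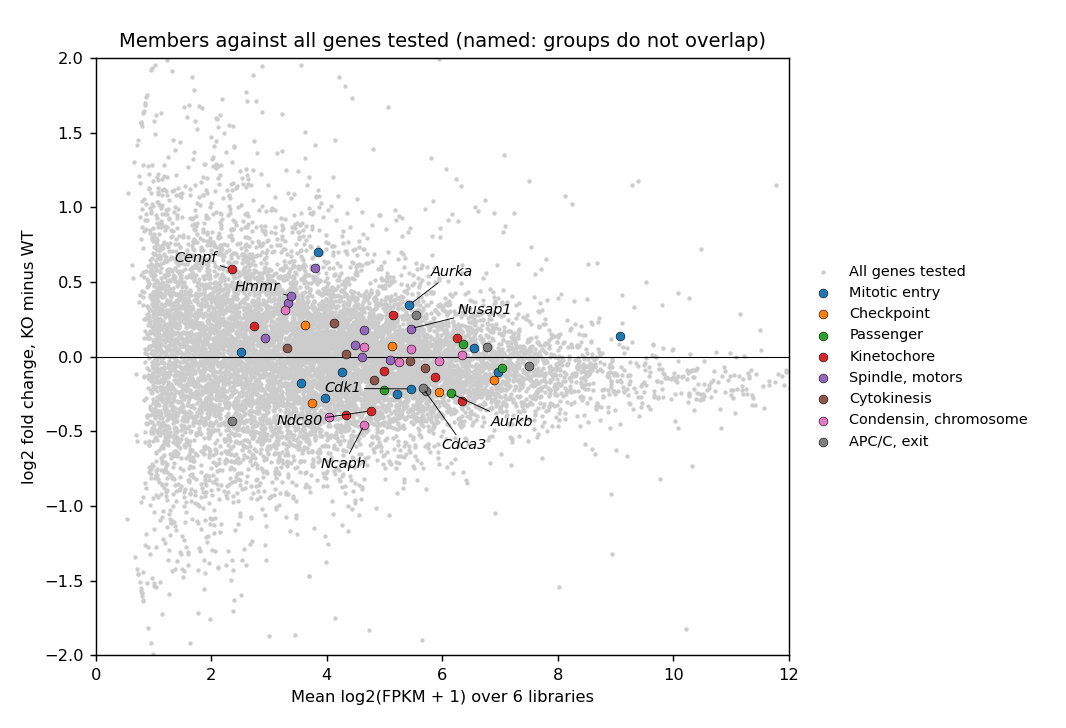
Log2 fold change, KO minus WT (vertical axis), against mean log2(FPKM + 1) over the 6 libraries (horizontal axis), for all genes tested (grey) and the 58 members coloured by role. Members lie between -0.46 and 0.70; the 9 named members are those whose WT and KO values do not overlap. The axes leave out 173 grey genes beyond a log2 fold change of 2 in size or a mean log2 level of 12.

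Among the genes that drive entry into mitosis, 5 of 11 had a positive log2 fold change and the median was -0.10, with 0 called. Cks2 was at 507, 534 and 490 FPKM in WT and 684, 430 and 605 FPKM in KO libraries, so that the KO values lay on both sides of the WT values. Ccnb2, a B-type cyclin, was at 144, 119 and 124 FPKM in WT and 135, 110 and 116 FPKM in KO, with overlapping groups. Cdk1, the kinase that these cyclins activate, was at 45.8, 49.2 and 43.8 FPKM in WT and 39.6, 43.2 and 36.4 FPKM in KO. Its groups did not overlap, by a margin of less than 1 FPKM, and the log2 fold change of -0.22 (SE 0.14) was not called (limma adjusted p = 0.683). Aurka, the Aurora kinase of spindle poles, was the reverse, at 38.8, 42.0 and 31.4 FPKM in WT and 51.8, 48.2 and 42.9 FPKM in KO. Its log2 fold change was 0.35 (SE 0.16, limma adjusted p = 0.566), and 0.23 without WT replicate 3. Plk1, which encodes Polo-like kinase, had 39.9 ± 5.11 FPKM in WT and 33.2 ± 2.47 FPKM in KO (SD, n = 3 each). Ccnb1 had 91.0 ± 11.3 and 95.1 ± 13.2 FPKM. The activating phosphatase Cdc25c had the highest log2 fold change of the 58 genes, 0.70 (SE 0.34, limma adjusted p = 0.588). It had 10.4 ± 2.39 FPKM in WT and 18.6 ± 8.59 FPKM in KO (SD, n = 3 each), with overlapping values. Foxm1, the forkhead factor that activates many G2/M genes, was low in both genotypes, with 4.80 ± 1.59 and 5.03 ± 2.17 FPKM. Cdc25b, Nek2 and Melk stood between 9.09 and 24.1 FPKM in all libraries, with log2 fold changes of -0.18, -0.10 and -0.28.

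Spindle checkpoint genes had a median log2 fold change of -0.15, with 2 of 5 positive and 0 called. Bub3, a checkpoint adaptor, was at 128, 124 and 119 FPKM in WT and 126, 93.9 and 116 FPKM in KO, where replicate 2 was the low value. Mad2l1, whose protein restrains the anaphase-promoting complex, was at 73.8, 70.8 and 55.2 FPKM in WT and 72.3, 56.4 and 42.6 FPKM in KO. Both genes overlapped between genotypes. The kinase gene Ttk varied most among WT libraries, at 8.90, 6.47 and 18.9 FPKM, a coefficient of variation of 57.8%, against 11.3, 12.4 and 12.9 FPKM in KO. The kinase gene Bub1 had 14.4 ± 4.53 and 11.3 ± 2.97 FPKM, and Bub1b had 33.0 ± 1.67 and 35.1 ± 7.25 FPKM (SD, n = 3 each).

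The chromosomal passenger complex, which corrects faulty attachments and later guides cleavage, was represented by 4 genes with 1 positive log2 fold change and a median of -0.15. Aurkb, its kinase, was at 82.0, 75.1 and 72.5 FPKM in WT, against 64.8, 64.7 and 63.4 FPKM in KO. Every KO value lay below every WT value, with little spread in KO, and the log2 fold change of -0.25 (SE 0.12) was not called (limma adjusted p = 0.577). Birc5, which encodes survivin, was at 143, 121 and 137 FPKM in WT and 127, 135 and 117 FPKM in KO. Cdca8, which encodes borealin, was at 79.3, 68.3 and 89.3 FPKM in WT and 86.6, 92.1 and 72.2 FPKM in KO. For both genes the ranges overlapped in part. The scaffold gene Incenp had 34.4 ± 10.2 and 28.4 ± 1.62 FPKM (SD, n = 3 each).

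Centromere and kinetochore genes pointed both ways, with 4 of 9 positive and a median of -0.10. Spc24, of the NDC80 complex that grips microtubules, was at 82.3, 101 and 82.7 FPKM in WT and 69.6, 93.8 and 56.4 FPKM in KO. Cenpa, the histone H3 variant that marks centromeres, was at 84.2, 77.1 and 58.5 FPKM in WT and 83.3, 75.9 and 77.7 FPKM in KO. Ndc80 itself was lower in each KO library, at 36.4, 25.8 and 27.7 FPKM in WT and 25.1, 21.3 and 22.2 FPKM in KO (log2 fold change -0.36, SE 0.18, limma adjusted p = 0.596). Without WT replicate 1 the log2 fold change was -0.22. Its complex partners Nuf2 and Spc25 overlapped between genotypes, with log2 fold changes of -0.10 and -0.13. Cenpf, a large protein of the outer kinetochore and the lowest member by mean level, was higher in each KO library. It was at 3.42, 3.83 and 2.43 FPKM in WT and 5.05, 5.54 and 5.26 FPKM in KO (log2 fold change 0.59, SE 0.27, limma adjusted p = 0.569). Cenpk and Cenpn, of the inner kinetochore, had log2 fold changes of 0.28 and -0.39, and the kinetochore motor gene Cenpe of 0.21.

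Spindle and motor genes had the highest median of the 8 roles, 0.18, with 7 of 9 positive, and 0 were called. Their summed level was 180, 161 and 179 FPKM in WT and 194, 203 and 190 FPKM in KO, so that the sums did not overlap. The means were 173 ± 10.4 and 196 ± 6.36 FPKM (SD, n = 3 each), a ratio of 1.13. The sums of the other 7 roles overlapped, and differences between sums were not tested. Of the 9 genes, 2 did not overlap (22.2%, against 15.8% of all genes). Nusap1, a spindle microtubule protein, was at 39.3, 38.4 and 42.4 FPKM in WT and 47.9, 44.1 and 45.2 FPKM in KO (log2 fold change 0.19, SE 0.13, limma adjusted p = 0.703). Hmmr, a spindle assembly factor, was at 7.20, 8.67 and 8.24 FPKM in WT and 11.1, 10.8 and 11.0 FPKM in KO (log2 fold change 0.41, SE 0.21, limma adjusted p = 0.597). For both genes every KO value exceeded every WT value. The microtubule-depolymerising kinesin Kif2c had 10.3 ± 0.982 FPKM in WT and 16.5 ± 4.86 FPKM in KO (SD, n = 3 each), with KO replicate 3 at 11.2 FPKM inside the WT range. Kif11, the motor that separates spindle poles, was at 39.2, 29.4 and 31.9 FPKM in WT and 25.2, 39.9 and 34.7 FPKM in KO, without a direction. Tpx2, which activates Aurora A, the motor genes Kif4 and Kif20b, and Ckap2l had log2 fold changes between 0.08 and 0.36, and Ckap2 had 23.4 ± 3.01 FPKM in WT and 23.5 ± 4.34 FPKM in KO. Kif4 has an annotated pseudogene, Kif4-ps, listed on its own in the table, and RefSeq also names pseudogenes of Ccnb1 and Ccnb2, so reads of these genes could be split.

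**Figure D4:**
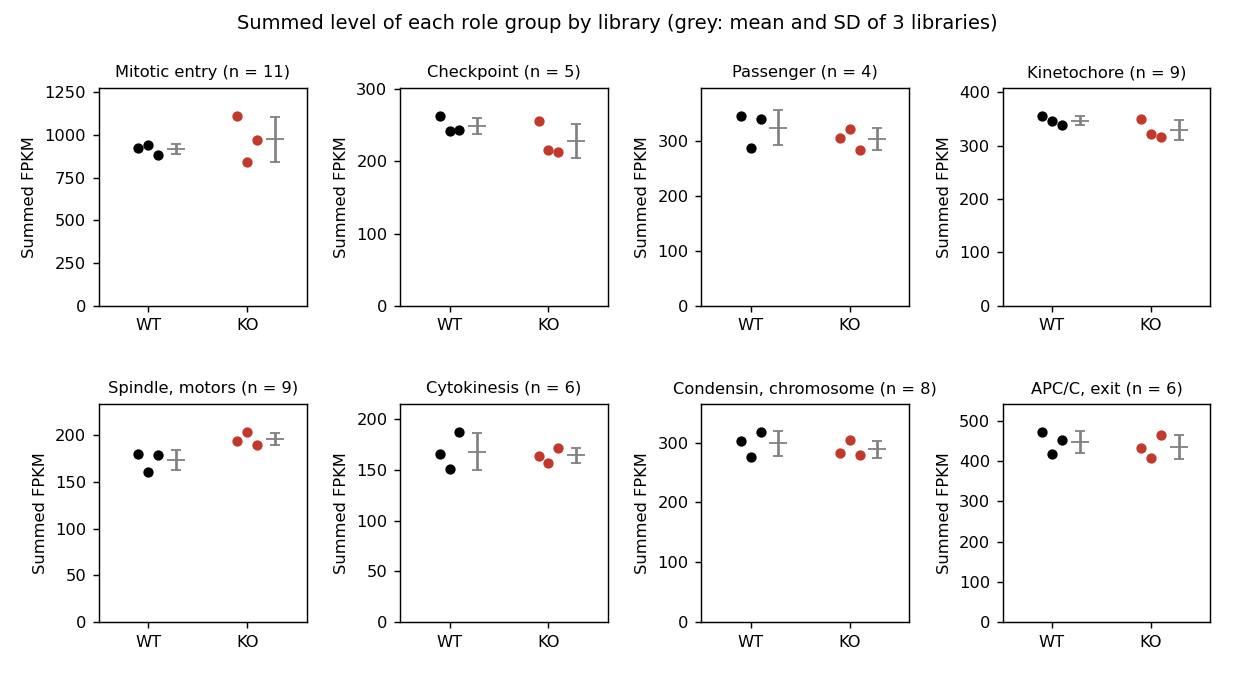
Summed FPKM of each role (vertical axes from 0) in the 3 WT (black) and 3 KO (red) libraries, with the mean and SD of each genotype in grey; n is the number of genes. The spindle and motor panel has all KO points (190 to 203 FPKM) above all WT points (161 to 180 FPKM), and the points of the other 7 panels overlap.

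Cytokinesis genes were evenly divided, with 3 of 6 positive, a median of -0.01 and 0 called. Racgap1, of the centralspindlin complex, was at 51.5, 46.4 and 59.5 FPKM in WT and 45.4, 52.5 and 51.2 FPKM in KO. Prc1, which bundles the midzone microtubules, was at 45.0, 32.2 and 53.8 FPKM in WT and 47.5, 36.0 and 42.8 FPKM in KO. Both overlapped, and WT replicate 2 was the lowest of the WT values for each. Kif20a, Kif23, Ect2 and Anln had log2 fold changes of 0.02, -0.16, 0.23 and 0.06.

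Condensin and chromosome genes, with 4 of 8 positive and a median of -0.01, included the member with the smallest p. Ncaph, the kleisin subunit of condensin I, was at 28.8, 28.5 and 27.8 FPKM in WT, against 20.2, 20.2 and 20.9 FPKM in KO libraries. The 3 values of each genotype lay close together and far from those of the other, with means of 28.4 ± 0.537 and 20.4 ± 0.431 FPKM (SD, n = 3 each), a ratio of 0.720. The log2 fold change was -0.46 (SE 0.15, limma unadjusted p = 0.0155, adjusted p = 0.482) and was not called. Ncapg, another condensin I subunit, had 18.1 ± 3.52 and 13.4 ± 2.24 FPKM, with overlapping values and a log2 fold change of -0.40. The third, Ncapd2, had 42.4 ± 6.61 and 43.8 ± 4.16 FPKM, and the ATPase genes Smc2 and Smc4, shared by both condensins, had log2 fold changes of 0.07 and -0.03. Lower values were therefore not seen across all subunits. Smc4 was at 63.6, 54.3 and 65.1 FPKM in WT and 56.7, 67.3 and 55.8 FPKM in KO. Top2a, topoisomerase II alpha, was the steadiest member, at 79.1, 76.8 and 82.5 FPKM in WT and 81.0, 81.0 and 78.1 FPKM in KO (log2 fold change 0.01, SE 0.11, 95% interval -0.24 to 0.27). Mki67, which encodes the proliferation antigen Ki-67, had 7.73 ± 0.892 FPKM in WT and 10.1 ± 3.42 FPKM in KO, with overlapping values. Cdca5, which encodes the cohesin protector sororin, had a log2 fold change of -0.03.

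Genes of mitotic exit had a median of -0.14, with 2 of 6 positive and 0 called. Ube2c, the ubiquitin-conjugating enzyme of the anaphase-promoting complex, was at 190, 159 and 205 FPKM in WT and 181, 149 and 201 FPKM in KO. Cdc20, its activator, was at 127, 98.2 and 94.5 FPKM in WT and 101, 115 and 116 FPKM in KO. Both overlapped between genotypes. Cdca3, a trigger of mitotic entry that the complex degrades, was at 50.9, 51.2 and 58.7 FPKM in WT and 40.9, 49.8 and 48.1 FPKM in KO, where the groups were separate by about 1 FPKM (log2 fold change -0.21, SE 0.14, limma adjusted p = 0.701). It was -0.13 without KO replicate 1 and -0.14 without WT replicate 3. Pttg1, which encodes securin, had 41.6 ± 7.10 and 50.3 ± 3.74 FPKM, and the ubiquitin enzyme gene Ube2s 56.0 ± 5.74 and 47.6 ± 5.19 FPKM (SD, n = 3 each). Espl1, which encodes the separase that securin holds in check, varied most among KO libraries. It was at 6.11, 6.06 and 3.15 FPKM in WT and 2.82, 2.15 and 6.05 FPKM in KO, a coefficient of variation of 56.9% in KO, so that both genotypes held high and low libraries.

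Long transcripts had low levels within the set. Across the 58 genes, Spearman's rho between the longest annotated transcript and mean FPKM was -0.53, and over the 10708 tested genes with a length it was -0.41. The points share their libraries, and the values are descriptions. Mki67 (longest transcript 10061 nt) and Cenpf (11130 nt) were low beside Cks2 (692 nt). Length also moved slightly with genotype over the whole table: 56.4% of tested genes over 5000 nt had a positive log2 fold change, against 38.1% of those under 1500 nt. Among the members, 6 of the 8 over 5000 nt were positive, with a median of 0.14, and so were 3 of the 4 under 1500 nt, with a median of 0.13. Spearman's rho between length and log2 fold change was 0.13 over the 58 members and 0.10 over all genes with a length. The part of transcript length in the values of Cenpf, Mki67 and Kif20b was not tested.

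A second list of 68 other G2/M genes, which shares no gene with the first, was compared in the same way. Of 67 tested, 30 log2 fold changes were positive and 37 negative, the median was -0.03 and 0 were called. An unadjusted p under 0.05 (limma) was seen for 2 genes higher and 3 lower in KO (7.46%, against 9.16% of all genes). The extremes were Mastl, the Greatwall kinase gene, with 1.43 ± 0.699 FPKM in WT and 4.07 ± 2.1 FPKM in KO, and Hjurp, which encodes the chaperone of CENP-A, with 4.31 ± 1.39 and 2.1 ± 0.367 FPKM (SD, n = 3 each; limma adjusted p = 0.526 and 0.546). The summed level of the list was 3563, 3596 and 3703 FPKM in WT and 3439, 3301 and 3143 FPKM in KO, so that the sums did not overlap. The means were 3621 ± 73.1 and 3294 ± 148 FPKM, a ratio of 0.91. Stmn1, an abundant microtubule regulator chosen here after its values were seen, accounted for 1487 ± 49.1 and 1257 ± 71.7 FPKM of these sums. It was at 1436, 1534 and 1490 FPKM in WT and 1339, 1212 and 1219 FPKM in KO libraries. Without Stmn1 the sums of the 2 genotypes overlapped. Of 13 subunits and activators of the anaphase-promoting complex, 6 were positive with a median of -0.06, from the activator gene Fzr1 (58.2 and 36.8 FPKM on average) to Anapc10 (8.14 and 15.6 FPKM), neither called (limma adjusted p = 0.533 and 0.512).

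Genes of earlier phases of the cycle were compared too, without a test of the difference between lists. Of 55 replication and G1/S genes, 17 log2 fold changes were positive and 38 negative, and the median was -0.13, with 0 called. The extremes were the DNA polymerase subunit genes Pold2 (89.1 ± 9.92 and 60.5 ± 3.8 FPKM; SD, n = 3 each; limma adjusted p = 0.324) and Pole2 (27.2 ± 6.05 and 38.7 ± 4.06 FPKM; limma adjusted p = 0.515). The summed level was 4413, 4399 and 4793 FPKM in WT and 4099, 4157 and 4079 FPKM in KO. The sum of the 58 mitotic genes divided by this sum was 0.681, 0.642 and 0.614 in WT and 0.754, 0.666 and 0.708 in KO libraries, with KO replicate 2 inside the WT range. Of 15 G1 cyclins, kinases and inhibitors, 4 were positive and 11 negative, with a median of -0.23. The cyclin D1 gene Ccnd1 was at 5.38, 5.47 and 5.09 FPKM in WT and 1.92, 1.12 and 1.76 FPKM in KO (log2 fold change -1.29, SE 0.29, limma adjusted p = 0.293). At the other end, the inhibitor gene Cdkn1b, which encodes p27, had 24.8 ± 2.71 and 31.4 ± 3.98 FPKM (SD, n = 3 each; limma adjusted p = 0.604).

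Markers of other blood cell types were present beside the mitotic genes. Granulocyte and monocyte markers differed most between the genotypes: 11 of 12 were higher with no overlap (7.47% of all genes). Of the 12, 2 were called (0.113% of all genes). Mpo was at 156, 119 and 257 FPKM in WT and 1215, 1476 and 787 FPKM in KO (limma adjusted p = 0.0307). The sum of these markers was 2.53 times as high in KO, whereas that of the 58 mitotic genes was 0.998 times. Most of the marker sum came from S100a8 and S100a9. S100a8 had 4135 ± 1004 FPKM in WT and 9853 ± 2397 FPKM in KO, and S100a9 2394 ± 579 and 5284 ± 1011 FPKM (SD, n = 3 each). No granulocyte or monocyte marker on the list was at 0 in any library. Erythroid markers summed to 121 to 157 FPKM in WT and 77.4 to 297 FPKM in KO. Among them Car1 ranged from 7.34 to 169 FPKM, Gata1 from 23.9 to 39.9 FPKM and Hbb-b1 from 4.25 to 36.4 FPKM over the 6 libraries, and Alas2 and Hba-a1 were at most 1.47 FPKM. B cell progenitor markers summed to 59.6 to 75.5 and 66.8 to 129 FPKM, and Vpreb1 and Igll1 were higher in every KO library than in any WT library, without being called. Megakaryocyte markers summed to 659 to 1052 FPKM in WT and 357 to 728 FPKM in KO (ratio 0.648), and macrophage markers to 31.4 to 120 and 18.5 to 89.3 FPKM (ratio 0.678). T and NK cell markers, apart from Nkg7, were at most 7.52 FPKM. Of the 3 tested, Cd3d and Nkg7 had a positive log2 fold change and Cd4 a negative one. Cd3d was at 0.73, 1.21 and 2.55 FPKM in WT and 5.02, 4.66 and 7.52 FPKM in KO, and was not called (limma adjusted p = 0.332). Cd4 was at 0.533, 1.44 and 3.44 FPKM in WT and 0.0, 2.25 and 0.0 FPKM in KO. Among the untested genes, Cd3g and Cd8a had lower means in KO, and Cd3e a higher mean that came from KO replicate 2 alone. The part of these cells in the level of the mitotic genes was not tested.

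**Figure D5:**
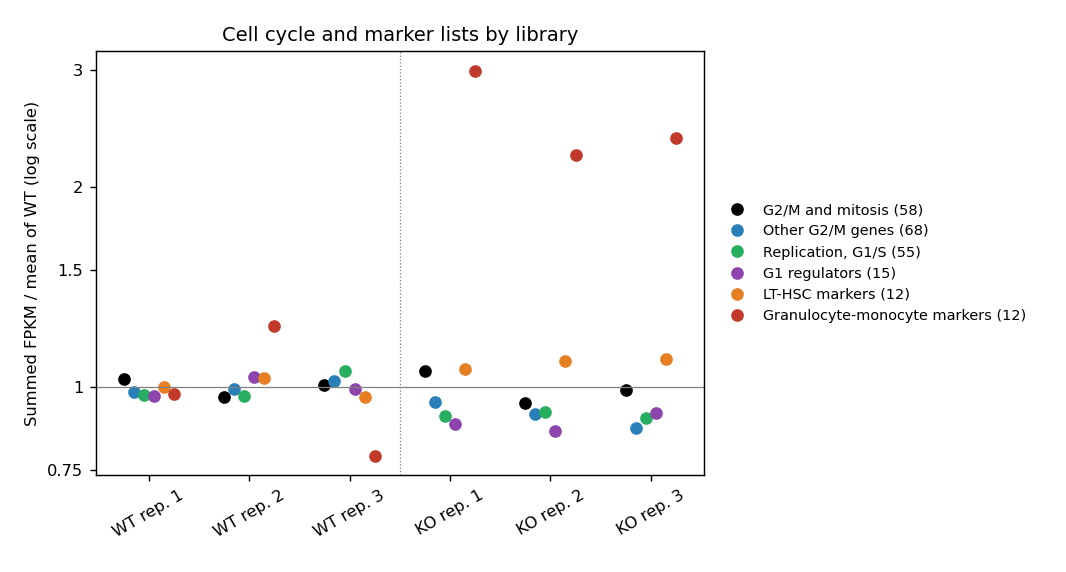
Summed FPKM of each gene list in every library divided by the mean of the 3 WT libraries (vertical axis, log scale; the number of genes in parentheses), with points of a library set side by side. The 58 mitotic genes lie close to 1 in all 6 libraries. The lists of other G2/M genes, replication and G1 genes lie below 1 in all 3 KO libraries. The granulocyte and monocyte markers lie above 2 in the KO libraries.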

How the data were processed

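RNA of LT-HSCs was sequenced as paired-end reads of 150 bp in 6 libraries, 3 per genotype. The authors deposited 1 table with an FPKM value per gene and library. TopHat2 2.1.1 and Cufflinks 2.2.1 are the tools, and mm9 the build, in the submitters' processing notes. The sources used here do not state options or the annotation. FPKM are scaled to each library's total, so levels are relative. The 11532 of 23235 genes whose mean reached 1 FPKM were taken to log2(FPKM + 1), and limma 3.58.1 (R 4.3.3) was run on them (mean-variance trend, genotype as the only term, two-sided tests, Benjamini-Hochberg adjustment over all genes tested). Fold changes on this scale understate those of low genes. All 58 members passed the filter. The fit was tested on simulated data.

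Depth was estimated from the lowest common step among 2281 genes with a mean under 1 FPKM, each with 1 annotated transcript over 1500 nt (GENCODE M21), with an assumed fragment length of 200 nt, and is approximate. Promoter sequences are from RefSeq, GRCm38.p6, not the build of the files. Members, roles and lists were chosen with earlier results of these data known, so no test was made over a list. Genes given in full were the 2 highest of each role, those with an unadjusted p under 0.05 or without overlap, the lowest member and the most variable in each genotype; the other members are given more briefly. Outside the members, the extremes of each list were named, and Stmn1 and the condensin II genes were added after their values were seen. Alternatives covered pseudocounts, filters, scaling, variance models, small RNA genes, a replicate block and leaving out each library.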

Additional observations from a re-analysis of the deposited data

How the results depend on the processing

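The count of members called stayed at 0 in all 16 alternative fits (limma), and 0 to 3 members had an unadjusted p under 0.05. The smallest adjusted p of a member ranged from 0.379 to 0.841. A filter at 5 FPKM left out Cenpf, Espl1 and Foxm1 and kept 55 members. The ratio of summed levels ranged from 0.968 to 1.02 over 10 alternatives. The median log2 fold change of the members ranged from -0.08 to 0.01 when 1 library was left out, with -0.08 without WT replicate 2. The number of genes called in the whole table, 13, was 6 without the variance trend, 1 when low genes were kept in, 20 with robust estimation and 32 without small RNA genes, and 2 to 19 when 1 library was left out, with 2 without KO replicate 3; the cause was not tested. With the replicate number as a block it was 2. Deviations of same-numbered libraries from their group means had correlations of 0.08, 0.01 and 0.04, and not every library correlated best with its own number, so the numbers were not taken as pairs. Of 26 members given in full, 16 did not reverse their sign under any alternative run and 10 did, none of them called. Cks2, among the 16, was at 0.0 without KO replicate 1. The 9 members without overlap were also among the 16. For them only rescaling of the libraries could have changed the sign, so the other alternatives could not test it. Under quantile normalization, Kif11 and Smc4 were each at 0.01. When 1 library was left out, log2 fold changes ran from -0.02 to 0.19 for Cdc20, -0.02 to 0.18 for Cdca8, -0.03 to 0.23 for Cenpa, -0.16 to 0.16 for Kif11, -0.23 to 0.13 for Prc1, -0.16 to 0.02 for Racgap1, -0.11 to 0.02 for Smc4, -0.01 to 0.04 for Top2a, -0.09 to 0.62 for Ttk and -0.17 to 0.05 for Ube2c. Groups did not overlap for 11 members under upper-quartile scaling, a count added after the data were seen. Overlap was not recomputed on quantile-normalized values.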
